A study of Mus musculus with 2 samples.

Results

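The 10 genes described here are Trp53, which encodes the transcription factor p53, its 2 negative regulators Mdm2 and Mdm4, and 7 genes that p53 is known to activate directly, Ccng1, Zmat3, Sesn1, Sesn2, Trp53inp1, Phlda3 and Aen. They were taken by gene symbol from the 23284 symbols listed in both libraries. All 10 were listed at 0.1 FPKM (fragments per kilobase of transcript, scaled also to the number of mapped reads) or more in each library, so none was lost to a filter.

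p53 binds DNA after damage, oncogene activity or nutrient stress and switches on genes for cell cycle arrest, death, repair and metabolic restraint. The p53 protein is kept scarce by Mdm2, a ubiquitin ligase that marks it for destruction, and its activity is held down by Mdm4, a relative that covers its activation domain. Because Mdm2 is itself a target of p53, the pair forms a feedback loop, and much of p53 control acts on the protein rather than on Trp53 RNA. In blood stem cells p53 is known for its part in quiescence and in the removal of damaged cells.

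RNA was sequenced from leukemic stem cells (LSCs) of mice with transplanted chronic myeloid leukemia (CML), with 1 WT library and 1 library of mice lacking STAP-1, an adaptor protein of signal transduction. Donor LSK cells (lineage-negative, Sca-1-positive, c-Kit-positive bone marrow cells) of either genotype, on the C57BL/6J (Ly5.2) background, received p210 BCR-ABL and GFP by retrovirus. They were transplanted with C57BL/6SJL (Ly5.1) bone marrow into lethally irradiated C57BL/6SJL mice, and GFP+ CD45.2+ LSK cells were sorted at day 11 after this first transplantation. The mice of the study were 8 to 14 weeks old. Both groups therefore carried BCR-ABL, and the WT library is a leukemic and not a normal sample. STAP-1 KO is a germline loss in the donor cells. The number of animals behind each library was not given in the sources used here. With 1 library per genotype there is no replicate, the genotype cannot be told apart from the animal, the sort or the library, and no test was made. Intervals below cover counting error only.

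The knocked-out gene, Stap1, was listed at 62.0 FPKM in WT and at 0.309 FPKM in STAP-1 KO LSCs, as the labels give. The libraries also differed in their cell type markers. All 12 mast cell and basophil markers were lower in STAP-1 KO LSCs, 11 of them by at least 2-fold, and their summed level went from 7.99% to 0.883% of all FPKM. Of 8 genes listed as neutrophil primary granule markers 6 were at least 2-fold higher, with a median log2 ratio of 2.93. Their summed level was 0.283% and 0.974% of all FPKM. This sum includes Calr, which is not particular to neutrophils, at 777 and 956 FPKM. Of 8 proliferation genes 5 were at least 2-fold higher and 1, Mki67, was at least 2-fold lower, with summed levels of 0.0830% and 0.173%, and after the length and GC correction described further on 3 were higher and 0 lower. The sort marker Kit was listed at 468 and 30.1 FPKM and Ly6a, which encodes Sca-1, at 285 and 106 FPKM, while of the lineage genes Cd8b1 was listed at 0 in both, Cd3e at 0.869 and 1.09 FPKM and Itgam at 1.82 and 1.56 FPKM. In such bulk libraries fewer cells of a type and less RNA per cell cannot be told apart, and the part of these differences in the values below was not tested.

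To show where p53 could be read into this gene set, the promoter sequences of the members were searched for the p53 response-element decamer, the palindromic 10-base unit that p53 recognises in pairs. RefSeq (GRCm38.p6) gave promoter windows of 300 bases, from 250 before to 50 after an annotated start, for 8 of the 10 members. Windows for Zmat3 and Trp53inp1 were not used here. A decamer that matched the consensus at every base, on either strand, stood in a window of 5 of the 8, beside 9.55% of the 27025 genes with a window. The 30 bases around each match are printed 5′ to 3′ on the strand of the gene, with the decamer in capitals.
Trp53: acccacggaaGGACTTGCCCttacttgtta
Mdm2: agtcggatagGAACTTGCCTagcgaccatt
Ccng1: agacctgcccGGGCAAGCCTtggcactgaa
Sesn1: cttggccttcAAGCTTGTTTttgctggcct
Aen: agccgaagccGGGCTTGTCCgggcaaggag

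The Trp53 stretch lies at chr11:69580274-69580303 on the plus strand, with the decamer starting at -75 from the annotated start of the gene. The Mdm2 stretch, at chr10:117710925-117710954 on the minus strand, has its decamer at -186. For Ccng1 the stretch is chr11:40755452-40755481 on the minus strand with the decamer at -185, and for Sesn1 it is chr10:41887256-41887285 on the plus strand. Sesn1 has 2 windows, and its decamer stands at -173 from the downstream start, 77.3 kb inside the gene, while the window of the upstream start held none. Aen also has 2 windows, and the same decamer, in chr7:78895927-78895956 on the plus strand, falls at -121 from one and at 11 after the other. The windows of Mdm4, Sesn2 and Phlda3 held no such decamer, which says only that these letters are not in those windows. Among the other p53 targets listed for this work 11 of 55 genes with a window held one, and among the other regulators of p53 5 of 38. A match is a string of letters and not a measured binding site, and the 5 genes with a match included both members that were higher (Trp53, Sesn1, Aen) and members that were lower (Mdm2, Ccng1) in STAP-1 KO LSCs.

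Trp53 (chr11:69580359-69591873, plus strand) was the only member outside the targets to be higher in the STAP-1 KO library. Its level was 106.9 FPKM in WT and 191.0 FPKM in STAP-1 KO LSCs, a ratio of 1.79 (95% exact binomial interval 1.68 to 1.91). These levels correspond to an estimated 1328 and 3318 reads. By level Trp53 ranked 1023 of all listed genes in WT and 574 in STAP-1 KO LSCs, so its RNA was abundant in both. The ratio stayed under the 2-fold cut-off that the study used. The log2 ratio of 0.84 stood at the 83.9 percentile of the 10974 genes that averaged 1 FPKM or more. FPKM counts RNA, and nothing in these files measures p53 protein or its modification.

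The study also lists a primer pair for p53 RNA, which shows what part of the transcript a PCR of this gene reads.
p53 forward: ttttgaaggcccaagtgaag
p53 reverse: tcttctgtacggcggtctct

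Matched to the GENCODE M21 transcripts of Trp53, the forward primer lies in exon 4 (chr11:69587425-69587444) and the reverse primer in exon 8 (chr11:69589628-69589647) of the protein-coding transcripts, which gives a product of 690 bases. The pair was found in 5 of 6 annotated Trp53 transcripts, among them 1 that does not code for protein and gives a product of 2145 bases. No PCR value was used here.

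Both negative regulators were listed at lower levels in the STAP-1 KO library. Mdm2 (chr10:117688875-117710758, minus strand) was listed at 58.2 FPKM in WT and 33.5 FPKM in STAP-1 KO LSCs, 1.73-fold lower (1.60 to 1.88), which does not reach the 2-fold cut-off. Mdm4 (chr1:132959484-133030561, minus strand) was listed at 22.1 and 9.34 FPKM, 2.37-fold lower (2.15 to 2.61). Mdm2 RNA thus exceeded Mdm4 RNA in both libraries, by 2.63-fold in the WT and 3.59-fold in the STAP-1 KO library. Mdm4 has one of the longest transcripts of the set, and long transcripts were lower as a class (described further on). Corrected for length and GC content, the log2 ratio of Mdm4 went from -1.24 to -0.39 and that of Mdm2 from -0.79 to -1.02, so that under this correction Mdm2 and not Mdm4 was past 2-fold. With coding transcripts neither was, at -0.99 for Mdm2 and -0.35 for Mdm4.

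**Figure D1:**
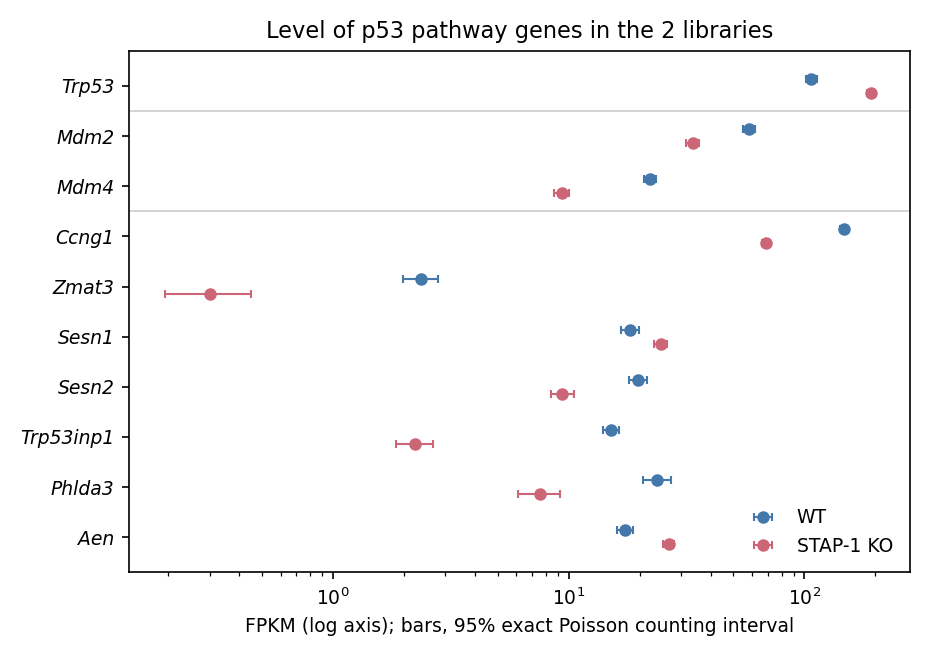
Level of the 10 genes in FPKM on a log axis, WT library in blue and STAP-1 KO library in red, each point 1 library with its 95% exact Poisson counting interval, and grey lines between Trp53, its negative regulators and its targets. Trp53, Sesn1 and Aen lie to the right in the STAP-1 KO library, and the other 7 genes lie to the left.

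Of the 7 direct targets, 5 were lower by 2-fold or more in the STAP-1 KO library and the other 2 were higher by less than 2-fold. Their median log2 ratio was -1.09, beside -0.05 for all 12507 genes compared, those with 0.1 FPKM or more in both libraries. The summed level of the 7 targets was 243 FPKM in WT and 139 FPKM in STAP-1 KO LSCs. Ccng1 held the largest share of this sum in both. Over the 10 members, 6 were at least 2-fold lower, where 22.9% of all genes compared were, and 0 were at least 2-fold higher, where 12.3% of all genes were.

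Ccng1 (chr11:40748552-40755311, minus strand) encodes cyclin G1, which brings a phosphatase to Mdm2 and so feeds back on p53. It was listed at 146 FPKM in the WT library, above Trp53 itself, and at 68.6 FPKM in the STAP-1 KO library, 2.13-fold lower (2.03 to 2.25). With an estimated 3624 and 2375 reads it was the best counted of the targets. Correction for length and GC content moved its log2 ratio from -1.09 to -1.37.

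Trp53inp1 (chr4:11156431-11174379, plus strand) and Zmat3 (chr3:32334792-32366014, minus strand) showed the lowest ratios of the set. Trp53inp1, a nuclear stress protein that helps p53 toward cell death and also takes part in autophagy, was listed at 15.1 FPKM in WT and 2.23 FPKM in STAP-1 KO LSCs, 6.79-fold lower (5.59 to 8.34). Zmat3, a zinc finger protein that binds RNA and acts in splicing, was listed at 2.35 and 0.303 FPKM, 7.78-fold lower (5.03 to 12.6). Of the 10974 genes that averaged 1 FPKM or more, only 4.06% and 4.54%, respectively, had a lower log2 ratio. Zmat3 was the member with the least support in reads, an estimated 134 in WT and 24.1 in STAP-1 KO LSCs if all came from its longest coding transcript of 7797 bases. Its annotated coding transcripts run down to 440 bases, and on the shortest the same levels would stand for 4.08 and 0.732 reads. After correction the log2 ratio of Zmat3 was -1.56 and that of Trp53inp1 was -2.45.

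Phlda3 (chr1:135766119-135769136, plus strand), a short protein with a pleckstrin homology domain that keeps the kinase Akt from the membrane, was listed at 23.7 FPKM in WT and 7.59 FPKM in STAP-1 KO LSCs. It was 3.13-fold lower (2.46 to 4.03). Its coding transcript has 1435 bases, fewer than the longest coding transcript of any other member, and genes of like length (1434 to 1657 bases, 544 genes) had a median log2 ratio of 0.44, on the other side of 0 from the -1.63 of Phlda3.

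The 2 sestrins, which restrain the growth kinase mTORC1 and protect against oxidative stress, went in opposite directions. Sesn1 (chr10:41809935-41908424, plus strand) was listed at 18.2 FPKM in WT and 24.5 FPKM in STAP-1 KO LSCs, a ratio of 1.35 (1.21 to 1.51). Sesn2 (chr4:132492032-132510501, minus strand) was listed at 19.7 and 9.41 FPKM, 2.09-fold lower (1.81 to 2.42), with the 2-fold cut-off inside its counting interval. The counting intervals of the levels of Sesn1 and Sesn2 overlapped in WT and lay apart in STAP-1 KO LSCs. Corrected for length and GC content, Sesn2 had a log2 ratio of -0.63, short of 2-fold, and Sesn1 one of 0.49, so the opposite directions stayed.

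Aen (chr7:78895854-78911209, plus strand), a nuclease that helps break down DNA in dying cells, was the other target with a higher level in the STAP-1 KO library. It was listed at 17.4 FPKM in WT and 26.6 FPKM in STAP-1 KO LSCs, a ratio of 1.53 (1.39 to 1.69). With transcript length and GC content corrected for, its log2 ratio went from 0.61 to 1.08, past 2-fold. Like Zmat3 and Mdm4, Aen has short annotated coding transcripts, and on the shortest, of 276 bases, its levels would stand for 8.74 and 18.7 reads in place of 619 and 1324.

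**Figure D2:**
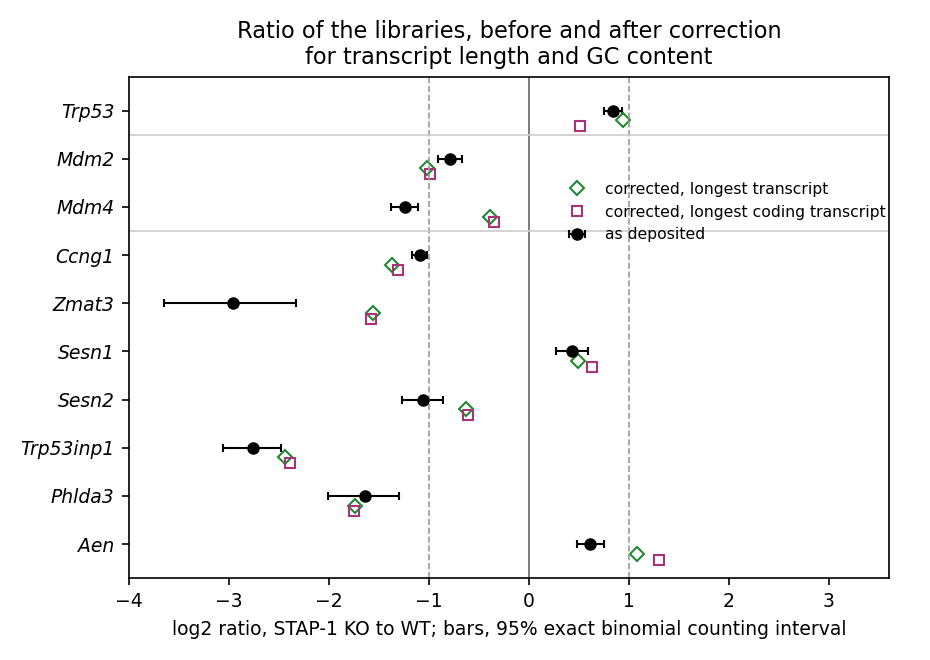
Log2 ratio of the STAP-1 KO library to the WT library for the 10 genes (black, with no pseudocount and with the 95% exact binomial counting interval), and the same after correction for length and GC content of the longest transcript (green diamonds) or the longest protein-coding transcript (purple squares), both with a pseudocount of 0.1 FPKM. Dashed lines mark 2-fold. Mdm4 and Sesn2 move inside the 2-fold lines on correction, Mdm2 comes to the line, Aen moves outside, and no gene changes side of 0.

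The order of the levels within each library was compared with the counting error. In the WT library Ccng1, Trp53 and Mdm2 followed each other at 146, 106.9 and 58.2 FPKM, each apart from the next. The next 6 genes, Phlda3, Mdm4, Sesn2, Sesn1, Aen and Trp53inp1, ran from 23.7 to 15.1 FPKM, and neighbours in this order did not differ beyond their counting intervals. Zmat3 was last. In the STAP-1 KO library Trp53 came first at 191.0 FPKM, ahead of Ccng1 at 68.6 and Mdm2 at 33.5 FPKM. Aen and Sesn1 overlapped each other at 26.6 and 24.5 FPKM, as did Sesn2, Mdm4 and Phlda3 with their neighbours between 9.41 and 7.59 FPKM, and Trp53inp1 and Zmat3 were apart at the bottom. The group of 6 genes at like levels in the WT library thus spread from 26.6 to 2.23 FPKM in STAP-1 KO LSCs.

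Set against Trp53 within each library, a measure that the scaling of the libraries cannot change, all 9 other genes had lower values in STAP-1 KO LSCs, where 83.1% of all other genes compared had a ratio below that of Trp53. For 7 of the 9 the level relative to Trp53 was lower by 2-fold or more, beside 46.3% of all genes. Mdm2 stood at 54.4% of the Trp53 level in WT and 17.6% in STAP-1 KO LSCs, and Mdm4 at 20.7% and 4.89%. Both inhibitors of p53 therefore had less RNA for each unit of Trp53 RNA, 3.10-fold less for Mdm2 and 4.24-fold less for Mdm4. For Mdm4 this was 2.51-fold after correction by longest transcript and 1.81-fold by coding transcript, and for Mdm2 3.89-fold and 2.83-fold. Ccng1 went from 137% to 35.9% of Trp53 and Trp53inp1 from 14.2% to 1.17%. The smallest shifts were those of Aen, 16.3% and 13.9%, and Sesn1, 17.0% and 12.8%. The Trp53 log2 ratio exceeded the median of the 7 targets by 1.93. Relative to Trp53, 7 of the 9 genes were at least 2-fold lower after correction by longest transcript, beside 49.1% of all genes, and 6 of the 9 by coding transcript, beside 31.4%. Aen was no longer below Trp53 under either correction, nor was Sesn1 by coding transcript.

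**Figure D3:**
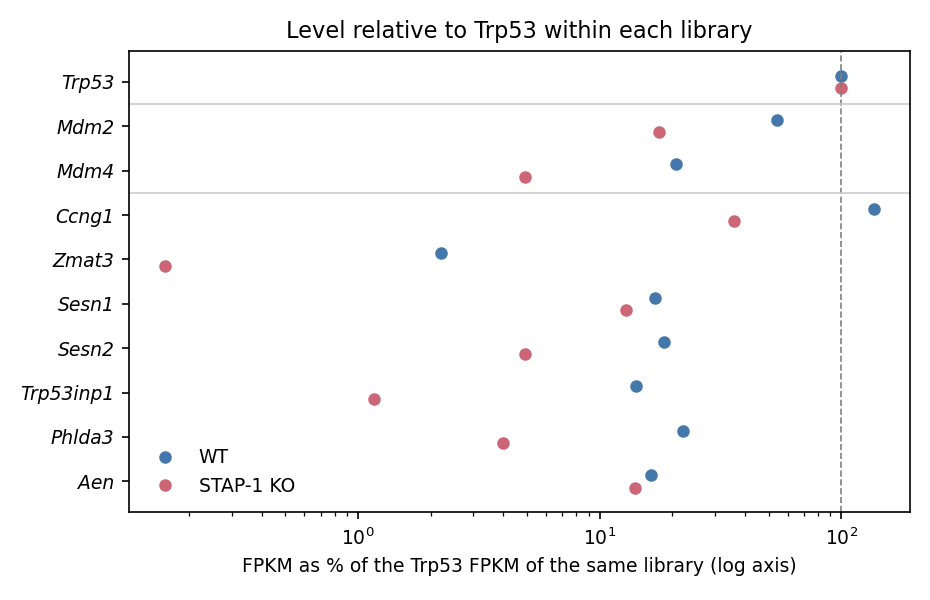
Level of each gene as a percent of the Trp53 level of the same library, log axis, WT in blue and STAP-1 KO in red, 1 library each and no error drawn. All 9 genes lie to the left in the STAP-1 KO library, Aen and Sesn1 by little, and Ccng1 moves from above the dashed line of the Trp53 level to below it.

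Transcript length went along with the ratio of the libraries over all genes, and the members were read against it. Over 10863 genes that averaged 1 FPKM or more and had an annotated coding transcript, Spearman's rho between coding length and log2 ratio was -0.40, as a description across genes of 1 pair of libraries. Over the 10 members it was -0.42 (n = 10 genes). Genes as long as Mdm4 (6253 to 7644 bases) had a median log2 ratio of -0.97 against its -1.24, so Mdm4 stood close to its length class. Genes as long as Aen (4771 to 5357 bases) had a median of -0.67 against its 0.61. The 1867 bases of the longest coding Trp53 transcript placed it in a class with a median of 0.30 against its 0.84. Correction by longest transcript gave Trp53 a log2 ratio of 0.94. On correction by this coding length, which was chosen after seeing that the longest annotated Trp53 transcript does not code for protein, Trp53 had a log2 ratio of 0.51 and Mdm2 one of -0.99. Under the correction by longest transcript, 5 members were at least 2-fold lower (Mdm2, Ccng1, Zmat3, Trp53inp1 and Phlda3), beside 18.2% of all genes, and 1 was higher (Aen), beside 10.4%. With coding transcripts 4 were lower, without Mdm2, beside 17.9%, and Aen was higher, beside 9.98%. Why length and ratio went together was not tested.

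**Figure D4:**
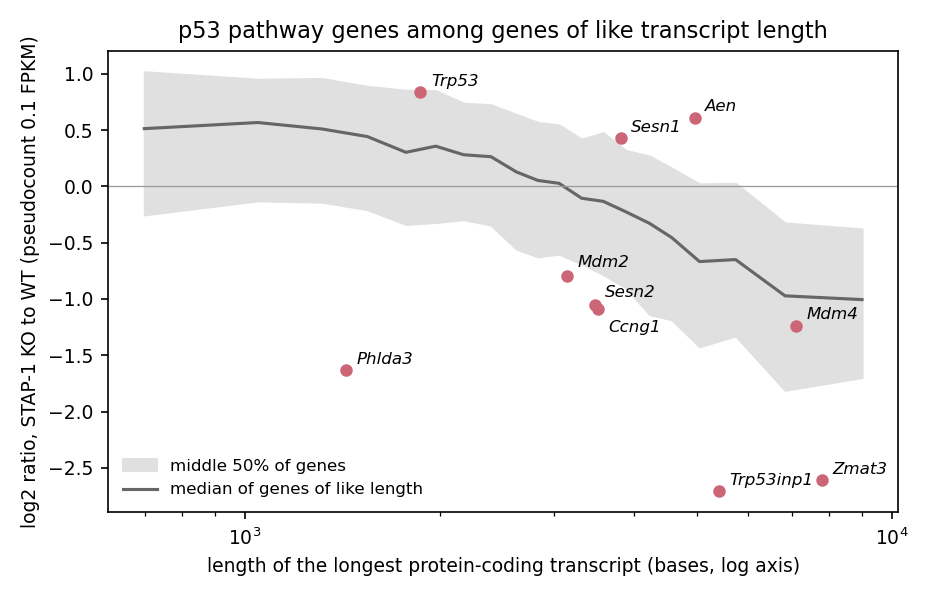
Log2 ratio of the STAP-1 KO library to the WT library (pseudocount 0.1 FPKM) against the length of the longest protein-coding transcript (log axis), for the 10 genes (red) and for 20 length classes of all genes that averaged 1 FPKM or more (grey line, median, and grey area, middle 50% of genes). The class medians fall from 0.51 to -1.01, Trp53 and Mdm4 lie within the grey area, Mdm2, Ccng1, Sesn2, Phlda3, Trp53inp1 and Zmat3 lie below it, and Sesn1 and Aen lie above it.

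To see how far the 10 genes resemble the wider pathway, 42 other regulators of p53 and 64 other known targets, listed from general knowledge, were described where the 2 libraries averaged 1 FPKM or more. At that level 22.2% of the 10974 genes in the files were at least 2-fold lower and 11.5% at least 2-fold higher. Of the regulators, 39 had that mean, and 8 of them (20.5%) were lower and 3 (7.69%) higher, with a median log2 ratio of 0.07. Before correction the shares of the regulators were thus near those of all genes. Corrected for length and GC content, 4 of the 39 were lower and 3 higher, where 18.3% and 9.79% of all genes were.

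Among the regulators, Cdkn2a had the log2 ratio farthest from 0. Its row joins p16, a brake on cyclin-dependent kinases, and Arf, which blocks Mdm2, and it was listed at 4.71 FPKM in WT and 0.265 FPKM in STAP-1 KO LSCs, a log2 ratio of -3.72. The STAP-1 KO level stands for about 1.90 reads, so that the counting interval of the log2 ratio ran from -7.19 to -2.06. Trim24, a ubiquitin ligase for p53, was listed at 17.1 and 3.29 FPKM, and Ep300, an acetyltransferase that p53 uses as a coactivator, at 9.04 and 1.86 FPKM. Chek1, a checkpoint kinase that phosphorylates p53, was listed at 7.24 and 22.8 FPKM, and was 1 of the 3 that were higher. The others, named after their values were seen, were Npm1 at 213 and 517 FPKM, a nucleolar protein, and Rpl5 at 1.96 and 6.47 FPKM, a ribosomal protein whose near-copies make its count uncertain. The corrected log2 ratio of Npm1 was 0.44, short of 2-fold. Wrap53, which lies beside Trp53 on the opposite strand, was listed at 18.6 and 25.3 FPKM, and no exon of it overlaps one of Trp53 in the annotation used.

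Of the other targets, 57 had a mean of at least 1 FPKM, and 19 (33.3%) were lower and 8 (14.04%) higher, with a median log2 ratio of -0.28. Both shares lay above those of all genes, the lower one by more. After correction 19 of the 57 were lower and 6 higher, beside the same shares of all genes. The median of these targets lay nearer to 0 than that of the 7 members, -1.09.

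The targets in cell cycle arrest held 10 measured genes, of which 3 were lower and 1 higher. Cdkn1a, the p21 inhibitor of cyclin-dependent kinases and the best known target of p53, was listed at 217 FPKM in WT and 66.4 FPKM in STAP-1 KO LSCs, 3.26-fold lower. Plk3, a stress kinase, was listed at 63.2 and 7.96 FPKM, and the membrane protein gene Cd82 at 139 and 41.4 FPKM. Gdf15, a secreted stress signal, went the other way, from 1.22 to 6.00 FPKM. Gadd45a, a stress sensor of DNA damage, was listed at 37.1 and 30.5 FPKM, short of 2-fold, but it was just past 2-fold lower on correction (log2 ratio -1.002).

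Of 16 measured targets in cell death 6 were lower and 2 higher. Bbc3, which encodes the BH3-only protein Puma, was listed at 10.2 and 4.65 FPKM, 2.19-fold lower. The death receptor gene Eda2r was listed at 14.01 and 1.61 FPKM, and Apaf1, the core of the apoptosome, at 13.8 and 4.20 FPKM, although the log2 ratio of Apaf1 was -0.78 once corrected for length and GC content. Bax, a pore-former of mitochondria, was listed at 164 and 145 FPKM, and Pmaip1, which encodes Noxa, at 66.9 and 43.0 FPKM, both short of 2-fold, although the corrected log2 ratio of Pmaip1 was -1.14. The higher ones were Siva1 at 99.6 and 247 FPKM and Casp1 at 11.8 and 32.1 FPKM, and on correction neither reached 2-fold, which left 6 lower and 0 higher in this list.

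The 11 measured targets in DNA repair and nucleotide supply were the target list with a median log2 ratio above 0, 0.17, and 2 of them were lower and 3 higher. Ercc5, a nuclease of nucleotide excision repair, was listed at 12.8 and 3.89 FPKM and Polk, a polymerase that bypasses damage, at 11.8 and 4.68 FPKM. The higher ones were Ddb2, a sensor of ultraviolet damage, at 5.47 and 13.5 FPKM, Pcna, the sliding clamp of replication, at 51.5 and 104 FPKM, and Rad51c, named after its values were seen, at 1.17 and 3.03 FPKM. Corrected for length and GC content, Ddb2 and Pcna had log2 ratios of 0.84 and 0.36, short of 2-fold. The log2 ratio of Xpc, also named after its values were seen, went from 0.71 to 1.19, past 2-fold. After correction 2 genes of this list were thus lower and 2 higher. Pcna is also 1 of the proliferation genes counted above.

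Of the 20 measured targets in metabolism, redox control and autophagy 8 were lower and 2 higher, with a median log2 ratio of -0.71. Corrected, this median was -0.53, beside -0.72 for the arrest, -0.64 for the death and 0.05 for the repair targets. Tsc2, which restrains mTORC1, was listed at 31.0 and 5.85 FPKM. Ddit4, another brake on mTORC1, was listed at 10.8 and 2.91 FPKM, Lpin1, a phosphatase of lipid synthesis, at 25.2 and 5.40 FPKM, and Sat1, which breaks down polyamines, at 198 and 50.7 FPKM. The 2 higher genes, named after their values were seen, were Tigar at 0.968 and 2.44 FPKM and Dram1 at 0.257 and 1.76 FPKM.

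**Figure D5:**
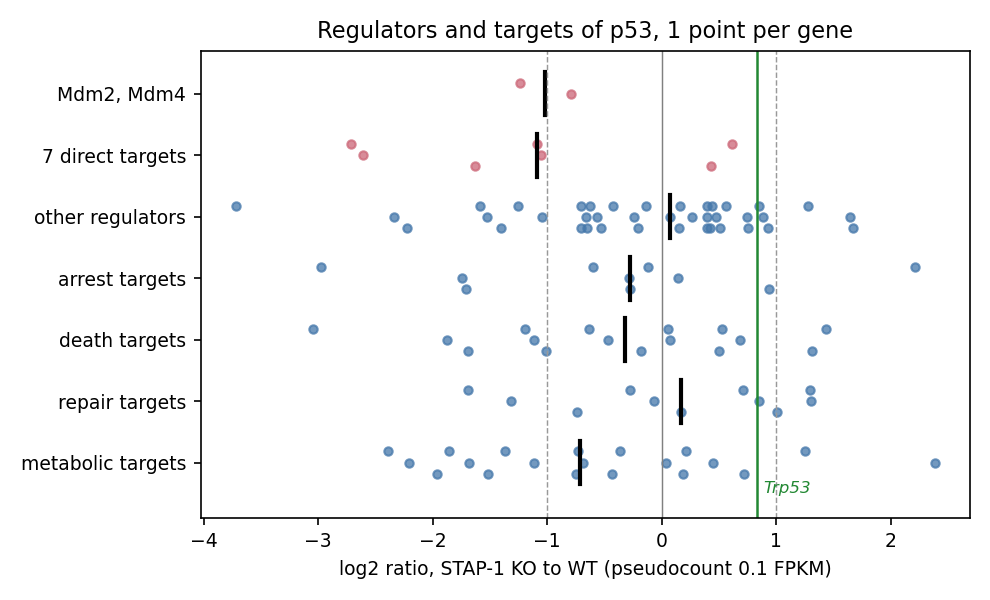
Log2 ratio of the STAP-1 KO library to the WT library (pseudocount 0.1 FPKM), 1 point per gene that averaged 1 FPKM or more, for the members (red) and the lists of other regulators and targets of p53 (blue), with a black bar at each median and points set apart vertically for sight only. The green line is Trp53 at 0.84, dashed lines mark 2-fold, and the list medians run from -1.09 for the 7 direct targets to 0.17 for the repair targets.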

How the data were processed

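RNA of sorted cells was turned into cDNA with the SMART-Seq v4 kit and into libraries with Nextera XT, which does not mark strand. The labels name miRNeasy and the methods RNeasy for extraction. The authors ran TopHat 2.0.13 with Bowtie2 2.2.3 to map single reads of 75 bases to mm10 and deposited FPKM values made with Cufflinks (Cuffnorm) 2.2.1. The submitters' processing notes name SAMtools 0.1.19, and the methods name another version. The annotation, the scaling by Cuffnorm and the total reads were not given in the sources used here.

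From the deposited FPKM, ratios of STAP-1 KO to WT were taken in Python 3.11.15 (scipy 1.17.1, pandas 2.3.3, numpy 2.4.6, matplotlib 3.10.9). A gene counted as lower or higher at a ratio of 2 or more, with 0.1 FPKM or more in both libraries and no pseudocount. Log2 ratios used a pseudocount of 0.1 FPKM, which understates the change of low genes. The 10 genes, the lists and the choice of tests were made with earlier results of these data known. Named genes are all members, Stap1, Wrap53, the relatives of the members, Cdkn1a, Bax, Bbc3, Pmaip1, Gadd45a, Cdkn2a, the sort markers, and from each p53 list up to 4 genes whose log2 ratio, at 1 FPKM of pseudocount, was largest in size. Ly6g, Hbb-bt and Cenpx were listed for this work but not analysed here. Some lineage markers are not reported here.

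Symbols were matched to GENCODE M21 (20911 as written, 1915 through older names, 458 not), which gave coordinates, lengths and GC content (GRCm38). Low FPKM values of genes with 1 transcript fell in part on steps of whole reads. Of 320 such values of WT LSCs 48.8%, and of 389 of STAP-1 KO LSCs 49.6%, came out whole to within 0.01 reads, where 2% would by chance, at effective depths of 7494000 and 10474000 reads and with 209 bases taken off each transcript. Reads per gene were estimated from these depths on the longest coding transcript. Their 95% intervals (exact Poisson for a level, exact binomial for a ratio) cover counting error only, and too few values came out whole for a count test. The correction took off the running median of genes of like transcript length and GC content (20 classes each). Simulated data with known answers were used to test the counting, correction and depth estimates. Alternatives changed the pseudocount, floor, fold cut-off, scaling, filter and correction. Promoters are from RefSeq (GRCm38.p6).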

Additional observations from a re-analysis of the deposited data

How the results depend on the processing

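No paired analysis was possible because each genotype has a single library, and no replicate could be left out. The values of the 10 genes were recomputed under 6 settings of pseudocount, scaling and correction, which gave 60 values. None changed sign, 42 moved by less than the counting error and 18 by more, nearly all on correction for length and GC content of transcripts. The median of the 7 targets was -1.37 under that correction and -1.31 with coding transcripts, an alternative chosen after seeing the data. The difference between Trp53 and this median was 2.31 with the longest transcripts corrected for and 1.82 with coding transcripts, beside 1.93 uncorrected. At a 3-fold cut-off 3 members were lower (12.95% of all genes). At a 1.5-fold cut-off 7 were lower (32.79%) and 2 were higher (25.6%). Under the corrections by longest and coding transcript 5 and 4 were at least 2-fold lower (18.2% and 17.9%) and 1 was higher in each (10.4% and 9.98%). Among genes that averaged 5 FPKM or more the median of the other regulators was 0.33. At a pseudocount of 1 FPKM the log2 ratio of Zmat3 was -1.36. Setting the median of all genes to 0 shifted log2 ratios by 0.04, and equal totals shifted them by -0.05. Depth limits genes with few estimated reads, such as Zmat3, Cdkn2a, Dram1 and Sesn3, and a listed 0 need not mean absence, since Rpl11, a ribosomal protein gene that every cell uses, was listed at 0 in both libraries.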

Other observations

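The relatives of the 10 genes were described beside them. The p53 family genes Trp63 and Trp73 and the zinc finger gene Zmat4 were listed at 0 in both libraries, so Trp53 was the only family member with a level above 0. Of the 6 relatives that averaged 1 FPKM or more, 3 were at least 2-fold lower and 1 was higher.

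Trp53inp2, the autophagy protein nearest to Trp53inp1, was listed at 6.77 FPKM in WT and 0.436 FPKM in STAP-1 KO LSCs, 15.5-fold lower, so both genes of this pair were lower. The relatives of Phlda3 were lower too, Phlda1 at 145 and 20.04 FPKM and Phlda2 at 6.81 and 3.07 FPKM, the latter resting on an estimated 28.0 and 17.6 reads.

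The other families were mixed. Ccng2, the second cyclin of the G type, was listed at 39.7 and 40.7 FPKM, while Ccng1 was 2.13-fold lower. Sesn3 was listed at 0.0684 and 0.686 FPKM, or about 4.57 and 64.0 reads, so that of the 3 sestrin genes only Sesn2 had a lower level in the STAP-1 KO library. Zmat1 was listed at 1.13 and 2.64 FPKM, while Zmat3 was 7.78-fold lower, and its log2 ratio was 0.87 once corrected. Isg20, a nuclease related to Aen, was listed at 76.0 and 101 FPKM, higher by less than 2-fold as Aen was.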
